A study of Mus musculus with 10 samples.

Results

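Matrix metalloproteinases (MMPs) and tissue inhibitors of metalloproteinases (TIMPs) were followed in 10 RNA sequencing libraries of mouse mammary normal fibroblasts (NFs) and tumor cells. The 10 genes were taken by symbol: Mmp2, Mmp3, Mmp9, Mmp10, Mmp11, Mmp13 and Mmp14 as proteases, and Timp1, Timp2 and Timp3 as inhibitors. They are 10 of 55486 genes in the count table, and all 10 passed the filter on low counts in every comparison. NFs came from mammary glands of mTmG reporter mice aged 8 weeks, whose cells are red until Cre recombinase turns them green, and were sorted by the surface protein CD26 into a CD26- and a CD26+ subset. By the study's methods, glands of several mice were pooled for a sort, and cells with EpCAM, CD49f, CD45 (the leukocyte antigen encoded by Ptprc) or CD31 were gated out before culture. Tumor cells were the lines 13-MCB-17 and 10-SJK-221, from tumors of engineered mice, whose full genotype is not given here, in which Cre under a milk protein promoter deletes E-cadherin (Cdh1) from mammary epithelium, a model of invasive lobular carcinoma. CD26- and CD26+ NFs were grown together in collagen gels with basement membrane extract, without tumor cells (gel 1) or with the line 13-MCB-17 (gel 4) or 10-SJK-221 (gel 5). The same lines were grown without NFs in gels 2 and 3. All 5 gels were cultured for 7 days and then dissolved with collagenase, and cells were sorted by color, giving 1 library per cell type and gel.

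Several features limit these groups as models. Both NF subsets had spent time in plate culture, and only CD26+ NFs had received the Cre adenovirus, so virus and subset cannot be told apart. NFs without tumor cells came from 1 gel, so a peculiarity of that gel and the absence of tumor cells cannot be told apart either. Tumor line and gel coincide, and each line is 1 culture derived from tumor tissue. The labels do not say that gels held cells of separate mice, so p-values measure the spread between these libraries, which may be technical. In sorted bulk RNA, fewer cells with a transcript and less transcript per cell cannot be told apart.

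MMPs are zinc proteases that are made as inactive proenzymes and cleave extracellular matrix and signaling proteins once activated. Gelatinases (Mmp2, Mmp9) cut denatured and basement membrane collagen, stromelysins (Mmp3, Mmp10) cut proteoglycans and other matrix proteins and activate other MMPs, and collagenase 3 (Mmp13) cuts fibrillar collagen. Mmp14 is anchored in the cell membrane and activates proMmp2 with the help of Timp2, and Mmp11 is a stromelysin that is activated inside the cell. TIMPs bind the active site of MMPs. Timp1 and Timp2 are soluble, and Timp3 is held in the matrix. Transcript levels say nothing of activation.

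Libraries held 14142334 to 18408940 counts, and a count of 0 allowed up to 0.163 to 0.212 counts per 1000000 counts (CPM), depending on the library, for counting error only. Col1a1, the defining fibroblast marker, measured 17368 and 18556 CPM in NFs without tumor cells, 7882 to 14344 CPM in NFs with them, and 1.78 to 89.1 CPM in tumor libraries. The sum of 8 fibroblast markers was likewise 69497 and 74846 CPM without and 23317 to 41536 CPM with tumor cells, with 2 of the 8 called higher and 4 lower. Col1a1, Col1a2 and Col3a1 made up most of this sum in NFs alone. Dcn instead went from 1621 to 2157 and 1909 CPM in CD26- NFs and from 1943 to 2935 and 2867 CPM in CD26+ NFs. Thy1 went from 223 to 464 and 725 CPM and from 456 to 639 and 1293 CPM. Epcam, the defining epithelial marker, lay between 335 and 432 CPM in tumor libraries, was at 0 in NFs grown alone and lay between 6.42 and 15.9 CPM in co-cultured NFs. The summed level of 8 epithelial markers in co-cultured NFs was 2.97% (CD26-) and 4.35% (CD26+) of that in the tumor library of gel 4, and 2.98% and 6.39% of that in gel 5. All 8 were detected there, whereas 6 of 8 were at 0 in either library of NFs grown alone. In the other direction, these fibroblast markers in co-cultured tumor libraries summed to 0.578% (gel 4) and 0.301% (gel 5) of the mean of the NFs of the gel. Pdgfra held 67.7 and 35.6 CPM of the sums of 71.7 and 38.7 CPM in tumor cells alone (gels 2 and 3). In co-cultured tumor libraries it held 49.9 of 177 CPM (gel 4) and 43.5 of 107 CPM (gel 5), whereas Thy1 was at 0 and 0.399 CPM. These percents are thus not a clean share of sorted-in NFs. The macrophage marker Adgre1 was at 0 in all 6 NF libraries, while 8 macrophage and leukocyte markers summed to 13.8 to 16.6 CPM in NFs without and 37.1 to 78.2 CPM in NFs with tumor cells, and to 115 to 314 CPM in tumor cells alone. Of 5 endothelial markers 4 were tested, and 2 were higher and 1 lower in co-cultured NFs and 1 higher in CD26+ NFs. Without tumor cells the 5 summed to 4.60 and 9.76 CPM in NFs, with them to between 8.06 and 24.4 CPM, and Pecam1 (CD31, gated out before culture) measured 0.31 and 1.26 CPM without and 5.93 to 9.76 CPM with tumor cells. The part of endothelial cells was not tested. These values are taken up beside the members they bear on.

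To compare proteases with inhibitors as sums, counts were divided by exon length and scaled to the same total in each library (TPM, a per-length counterpart of CPM). The 7 MMP genes summed to 8488 TPM in CD26- and 9243 TPM in CD26+ NFs grown alone. In co-culture the sum was 33174 TPM (gel 4) and 34535 TPM (gel 5) in CD26- NFs, and 41797 and 50141 TPM in CD26+ NFs. Co-cultured NFs lay above every other library, and the 7 genes took 1.95% to 3.25% of all their counts, compared with 0.675% and 0.842% in NFs alone. Tumor cells held 4159 and 2801 TPM alone (gels 2 and 3) and 5109 and 5073 TPM in co-culture (gels 4 and 5).

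The 3 TIMP genes summed to 5528 TPM in CD26- and 3947 TPM in CD26+ NFs alone. Their sum was 7596 and 10170.2 TPM in co-cultured CD26- NFs and 4374 and 6316 TPM in co-cultured CD26+ NFs (gels 4 and 5). CD26- NFs thus held more inhibitor transcript than CD26+ NFs of the same gel in all 3 gels. In tumor libraries the TIMP sum was lower than in any NF library, from 654 to 1145 TPM.

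Consequently the ratio of the MMP sum to the TIMP sum was 1.54 in CD26- and 2.34 in CD26+ NFs alone. It was 4.37 and 3.40 in co-cultured CD26- NFs, and 9.56 and 7.94 in co-cultured CD26+ NFs (gels 4 and 5). Within each gel the ratio was higher in CD26+ than in CD26- NFs, by 0.99 ± 0.33 on the log2 scale (SD, n = 3 gels). In co-culture the log2 ratio was higher by 1.33 ± 0.26 in CD26- and by 1.90 ± 0.19 in CD26+ NFs (SD over 2 gels, each against the 1 library grown alone). In tumor cells the ratio was 4.81 and 4.28 alone and 4.46 and 5.49 in co-culture, a log2 difference of 0.13 ± 0.33 (SD, n = 2 lines), smaller than its spread, but 0.79 on counts not divided by length. No test was run on these sums. They lean on Mmp3: without it the co-culture difference was 0.54 in CD26- and 1.18 in CD26+ NFs, and without Mmp13 the difference in tumor cells became -0.36.

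**Figure D1:**
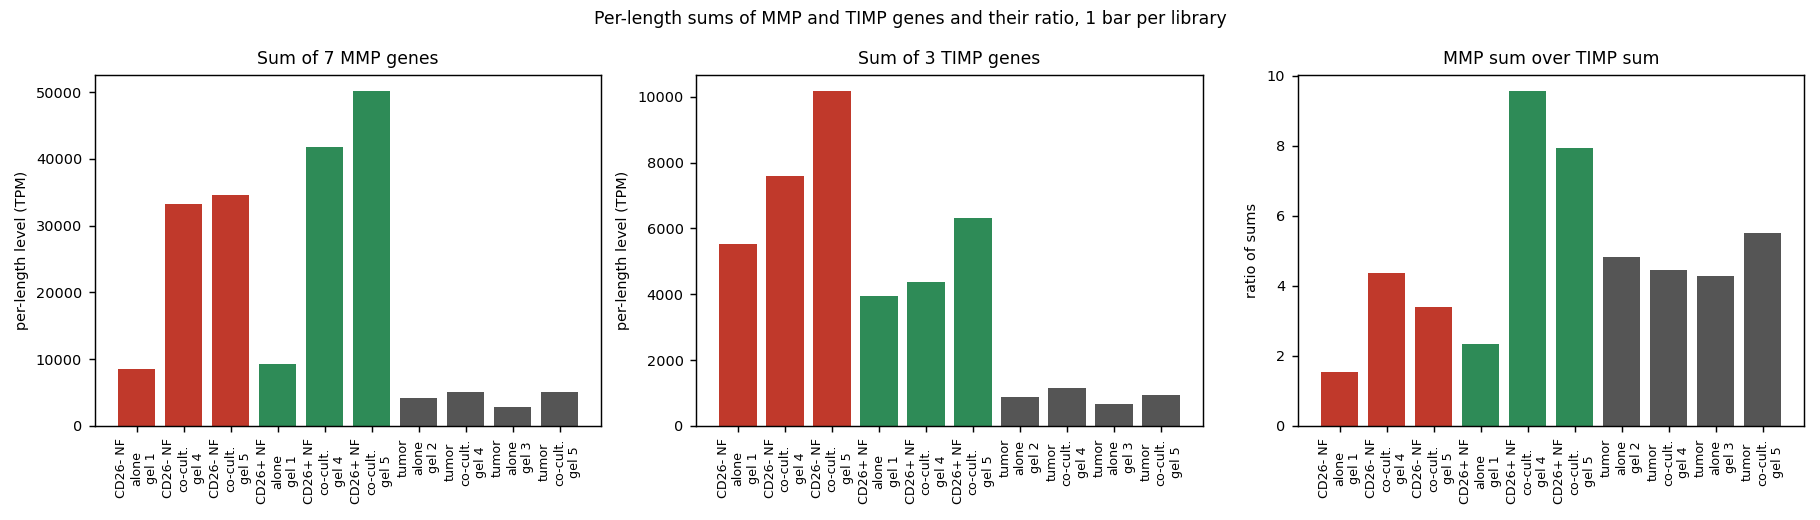
Per-length sums (TPM) of the 7 MMP genes and of the 3 TIMP genes, and the ratio of these sums, with 1 bar per library (red, CD26- NFs; green, CD26+ NFs; grey, tumor cells). The ratio of co-cultured CD26+ NFs, 9.56 and 7.94, stands above that of all other libraries, which lie between 1.54 and 5.49.

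The make-up of the sums differed between cells. Mmp2 made up 42.0% (CD26-) and 54.4% (CD26+) of the MMP sum in NFs alone, with Mmp3, Mmp14 and Mmp13 next. In co-cultured NFs Mmp3 led with 47.4% to 58.7%, next came Mmp9 in CD26- NFs (15.1% and 13.1%) and Mmp13 in CD26+ NFs (17.2% and 14.5%), and Mmp2 held 7.41% to 10.7%. Tumor cells were made up chiefly of Mmp13 and Mmp3, with Mmp2 below 1% in each of the 4 libraries (0.103% to 0.913%). Among inhibitors, Timp1 made up 52.5% and 54.5% of the sum in NFs alone and 75.5% to 82.4% in co-cultured NFs. Timp2 led in tumor cells alone with 74.2% and 75.6%, and was nearly level with Timp1 in co-culture, at 48.3% and 52.1%.

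**Figure D2:**
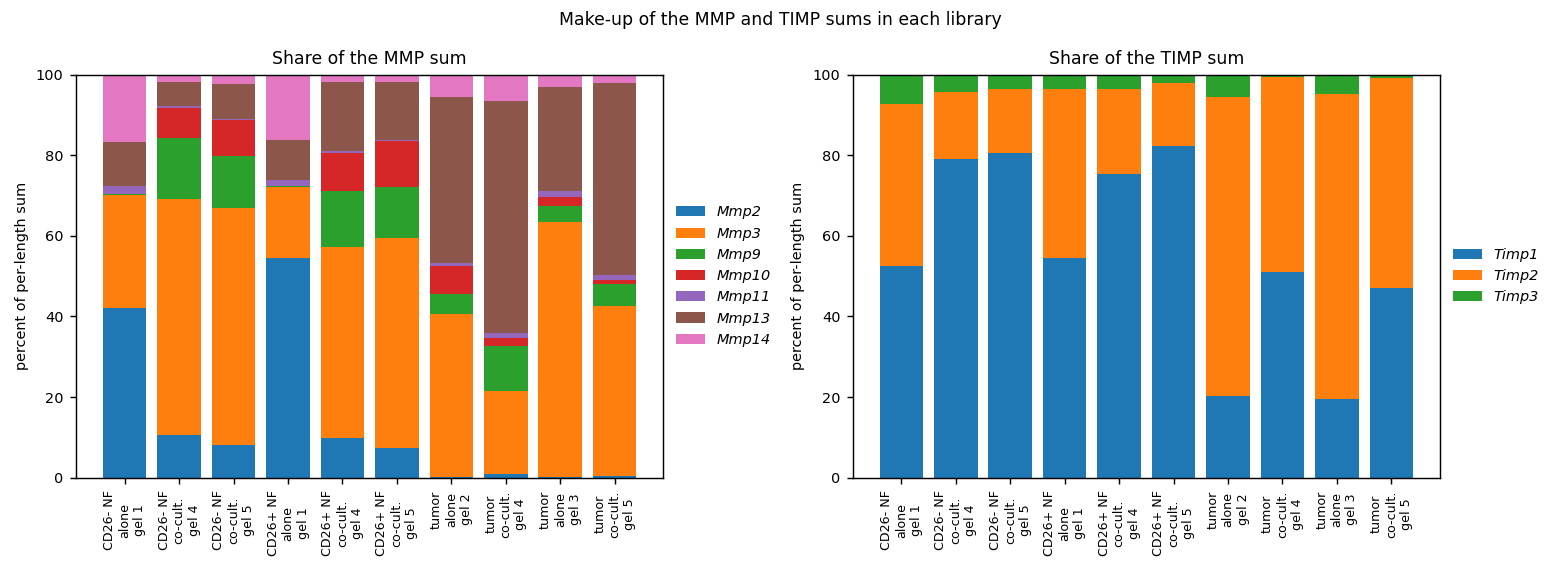
Percent of the per-length MMP sum (left) and TIMP sum (right) held by each gene, with 1 stacked bar per library. Mmp2 leads in NFs grown alone (42.0% and 54.4%), Mmp3 in co-cultured NFs (47.4% to 58.7%), and Mmp13 or Mmp3 in tumor cells.

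Each gene was then tested with edgeR's quasi-likelihood test across all genes that passed the filter, and p-values adjusted by the Benjamini-Hochberg method were read at 0.05. Between co-cultured NFs and NFs alone, 7 of 10 members passed, against 48.8% of all genes tested (25.9% higher and 22.9% lower). Of the proteases Mmp3, Mmp9, Mmp10 and Mmp13 rose and Mmp14 fell, and of the inhibitors Timp1 rose and Timp2 fell. In the same comparison 7 of 7 epithelial markers tested were higher (median 9.72), and of 8 fibroblast markers 2 were higher and 4 lower. Their part in these changes was not tested beyond the levels given with each member. The median log2 fold change was 2.23 over the 7 MMP genes and -0.04 over the 3 TIMP genes, beside 0.02 over all genes tested. Between CD26+ and CD26- NFs over 3 gels, 2 of 10 members passed, against 7.53% of all genes (3.93% higher and 3.6% lower): Mmp10 was higher and Timp3 lower in CD26+ NFs. Of 8 fibroblast markers 2 were lower and 0 higher there (median -0.45). Of 7 epithelial markers tested 1 was higher and 0 lower (median 0.83), and the part of such cells was not tested. All but Mmp3 of the MMP genes had a positive estimate and all 3 TIMP genes a negative one (medians 0.34 and -0.66, all genes 0.00). In co-cultured tumor cells against tumor cells alone, 8 of 10 members passed, against 22.3% of all genes (10.8% higher and 11.5% lower). Mmp2, Mmp9, Mmp11, Mmp13, Mmp14 and Timp1 rose and Mmp10 and Timp3 fell. These calls rest on the term for tumor line, with 1 residual degree of freedom. Without it edgeR called 0 members and 0 of all genes, with 5 members (Mmp2, Mmp9, Mmp11, Timp1, Timp3) at an unadjusted p under 0.05. Comparisons within NFs share the same 6 libraries and are not independent.

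**Figure D3:**
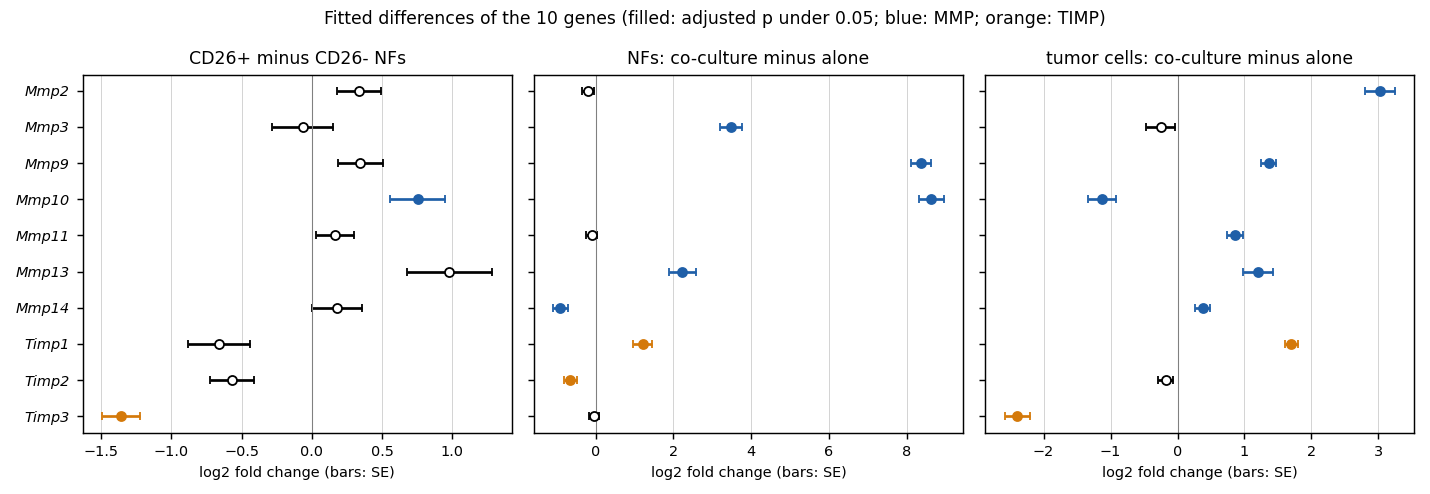
Fitted log2 fold changes of the 10 genes with their standard errors for CD26+ against CD26- NFs, co-cultured NFs against NFs alone, and co-cultured tumor cells against tumor cells alone (filled points, adjusted p under 0.05; blue, MMP; orange, TIMP; the x axes differ in range). Mmp9 and Mmp10 rose by 8.36 and 8.64 in co-cultured NFs, whereas Mmp10 fell by 1.12 in co-cultured tumor cells.

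Of the gelatinases, Mmp2 (ENSMUSG00000031740, chromosome 8, 92827291 to 92853420, GRCm38, plus strand) was at a like level in NFs of all gels. It measured 2919 CPM in CD26- and 4492 CPM in CD26+ NFs of gel 1, 3003 and 3638 CPM in gel 4, and 2308 and 3478 CPM in gel 5. Libraries with and without tumor cells overlapped, and the change in co-culture was within the spread (log2 fold change -0.19, SE 0.17, edgeR adjusted p = 0.359). CD26+ NFs lay above CD26- NFs of the same gel by 1.21-fold to 1.54-fold, which did not pass over all 3 gels (0.34, SE 0.16, edgeR adjusted p = 0.219).

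Tumor cells held hardly any Mmp2 when grown alone, 3.97 CPM (13-MCB-17) and 2.74 CPM (10-SJK-221), which left NFs alone higher by 10.19 on the log2 scale (SE 0.59, edgeR adjusted p = 2.83e-06). In co-culture the tumor libraries held 42.3 and 16.4 CPM, a rise of 3.02 (SE 0.23, edgeR adjusted p = 0.000114). These levels were 1.27% and 0.566% of the mean of the NFs of the same gel, beside 0.578% and 0.301% for the fibroblast marker sum. Part of that sum is Pdgfra, which tumor cells also held when grown alone, and the part of sorted-in NFs in the rise of Mmp2 was not tested.

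Mmp9 (ENSMUSG00000017737, chromosome 2, 164940780 to 164955850, plus strand), the inducible gelatinase, had the reverse starting point, with NFs alone below tumor cells. It measured 12.9 CPM in CD26- and 18.6 CPM in CD26+ NFs alone, 199.7 and 106 CPM in tumor cells alone (gels 2 and 3), 4443 and 5350.15 CPM in NFs of gel 4, and 3879.96 and 6332 CPM in NFs of gel 5. NFs alone were thus lower than tumor cells alone by a log2 difference of -3.18 (SE 0.44, edgeR adjusted p = 0.000425), and co-cultured NFs were higher than tumor cells of the same gels by 3.79 (SE 0.42, edgeR adjusted p = 0.000133). The rise per gel and subset ran from 288-fold to 344-fold. Tumor cells with NFs held 550.5 and 263 CPM, which was 11.2% and 5.15% of the NFs of the gel, beside 0.578% and 0.301% for the fibroblast marker sum, and the part of sorted-in NFs was not tested. Conversely, NFs held 807% to 2406% of the tumor library of their gel, at an epithelial marker sum of 2.97% to 6.39%. Neutrophils also make Mmp9: 5 neutrophil markers summed to 0 and 0.491 CPM in NFs alone, 2.70 to 33.1 CPM in co-cultured NFs and 38.7 and 171 CPM in tumor cells alone. Co-cultured tumor libraries held 40.9 (gel 4) and 14.3 CPM (gel 5), and the part of neutrophils in the level of Mmp9 was not tested. S100a8 made up most of the sum in co-culture: it measured 0 (CD26-) and 0.211 CPM (CD26+) in gel 1, 4.36 and 30.4 CPM in gel 4, and 2.19 and 32.1 CPM in gel 5, and as the 1 neutrophil marker tested it was called higher in co-culture and in CD26+ NFs. Mpo and Elane were at 0 in NFs alone and at no more than 0.566 CPM in co-cultured NFs, S100a9 was at 0 in all 6 NF libraries and Ly6g in 3 of the 4 co-cultured ones. Ptprc, carried by neutrophils as by other leukocytes and gated out before culture, had no more than 1 count in any NF library.

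**Figure D4:**
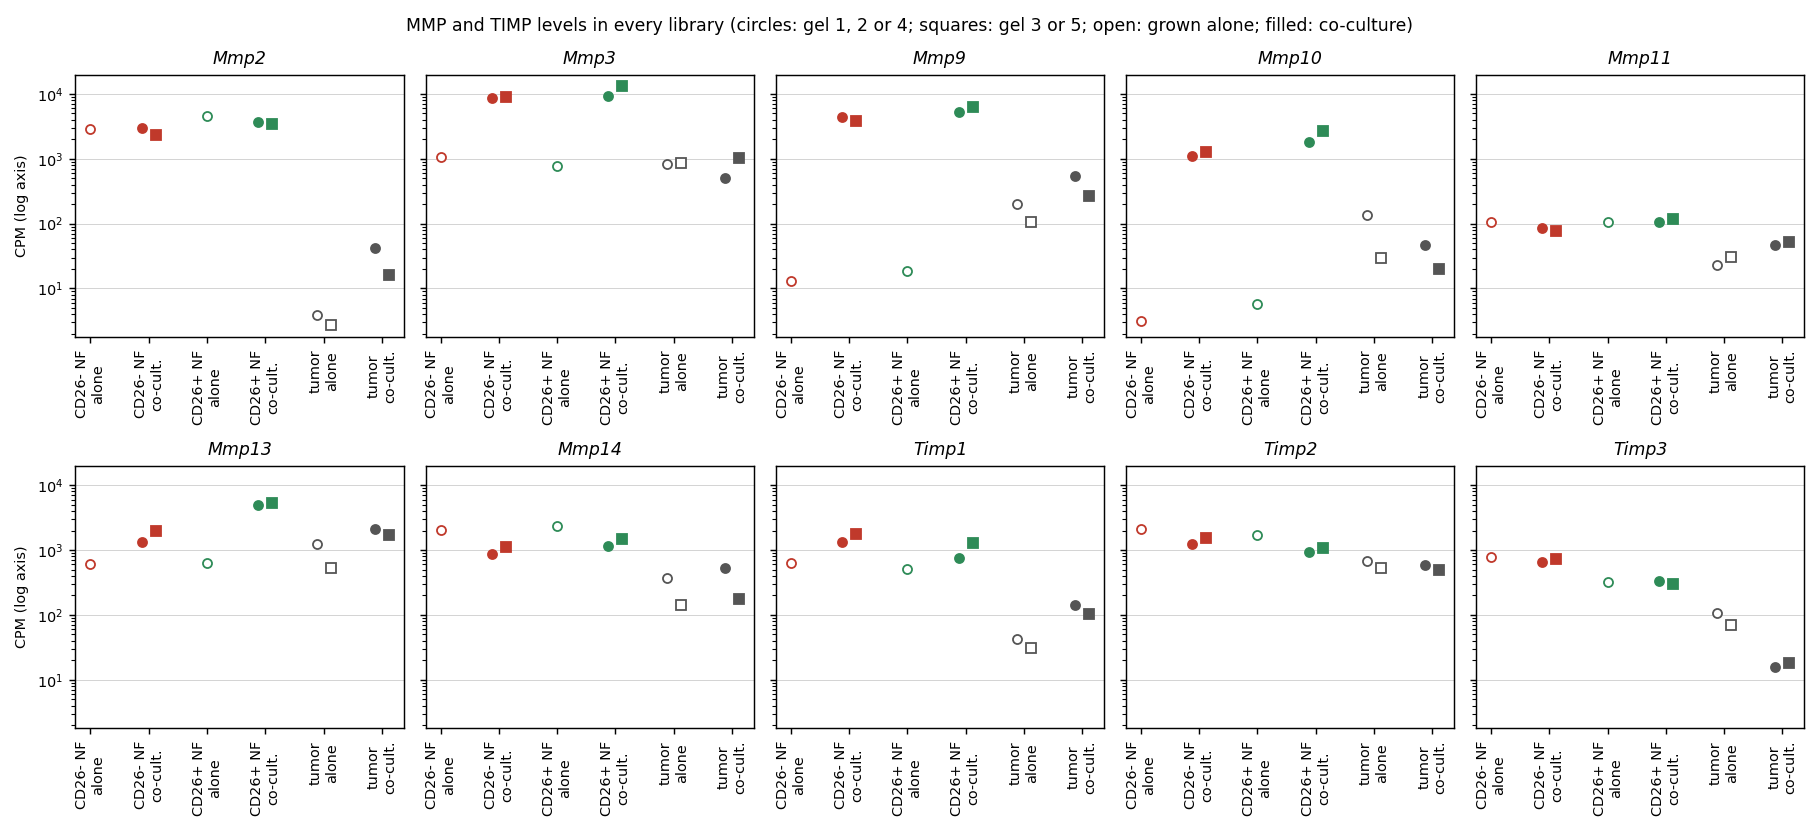
CPM (log axis) of the 7 MMP and 3 TIMP genes in each library by group (red, CD26- NFs; green, CD26+ NFs; grey, tumor cells; open, grown alone; filled, co-culture; circles, gels 1, 2 and 4; squares, gels 3 and 5). Mmp9 and Mmp10 lie lowest in NFs grown alone (12.9 and 18.6 CPM; 3.10 and 5.76 CPM) and highest in co-cultured NFs, whereas Timp3 separates CD26- from CD26+ NFs in every gel.

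Stromelysins 1 and 2 and collagenase 3 lie in 1 cluster of MMP genes, Mmp13 (ENSMUSG00000050578) at 7272514 to 7283331, Mmp3 (ENSMUSG00000043613) at 7445822 to 7455975 and Mmp10 (ENSMUSG00000047562) at 7502352 to 7510240 of chromosome 9, GRCm38, all on the plus strand and within 238 kb. Since these neighbors all rose in co-cultured NFs, the 120 bases before their RefSeq starts (GRCm38.p6, plus strand) are shown, with Timp1, an inhibitor that also rose, from chromosome X. Capitals mark the AP-1 letters TGACTCA or their reverse complement TGAGTCA, and the TATA box letters TATAAA.
Mmp13, chr9:7272394-7272513: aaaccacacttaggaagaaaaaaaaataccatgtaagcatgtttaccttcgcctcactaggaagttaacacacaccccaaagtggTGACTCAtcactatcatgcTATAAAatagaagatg
Mmp3, chr9:7445702-7445821: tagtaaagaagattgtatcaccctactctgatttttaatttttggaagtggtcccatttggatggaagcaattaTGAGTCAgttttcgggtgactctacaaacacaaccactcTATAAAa
Mmp10, chr9:7502222-7502341: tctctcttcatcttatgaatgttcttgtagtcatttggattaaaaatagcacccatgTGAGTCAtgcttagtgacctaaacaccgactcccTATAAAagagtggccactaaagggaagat
Timp1, chrX:20870046-20870165: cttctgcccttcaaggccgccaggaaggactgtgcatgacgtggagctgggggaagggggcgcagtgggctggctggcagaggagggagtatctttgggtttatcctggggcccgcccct

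AP-1 is the binding dimer of the Fos and Jun families. Its letters began 35 bases before the start of Mmp13, 46 bases before that of Mmp3 and 63 bases before that of Mmp10, with TATAAA 16, 7 and 29 bases before the start. Of 8 members with a promoter in the table, these 3 held both sets of letters within 250 bases before the start and the other 5 (Mmp11, Mmp14, Timp1, Timp2, Timp3) held neither. Over all 27025 genes with a promoter, 5.16% held the AP-1 letters on either strand, 8.94% held TATAAA on the gene's strand and 0.574% held both. Of 14 other MMP and TIMP genes with a promoter, Mmp1a, Mmp1b and Mmp7 held both and Mmp12 the AP-1 letters. Matches of letters were not measured binding.

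Mmp3 (stromelysin 1) was the most abundant protease transcript per length in co-cultured NFs. It measured 1047 CPM in CD26- and 780.1 CPM in CD26+ NFs alone, 8729.8 and 9337 CPM in gel 4, and 8870.1 and 13024 CPM in gel 5. Groups did not overlap, the rise was 8.33-fold to 16.7-fold per gel and subset, and the fitted log2 fold change was 3.49 (SE 0.28, edgeR adjusted p = 1.04e-05). These NFs held 862% to 1834% of the Mmp3 level of the tumor library of their gel, at an epithelial marker sum of 2.97% to 6.39%. CD26+ NFs were the lower of the pair in gel 1 and the higher in gels 4 and 5, with no difference past the threshold (-0.06, SE 0.22, edgeR adjusted p = 0.888). Tumor cells alone held 831 and 864 CPM, a level between those of the NF subsets grown alone (0.22, SE 0.32, edgeR adjusted p = 0.578). In co-culture Mmp3 was 509 CPM in the line 13-MCB-17 and 1029 CPM in 10-SJK-221, opposite directions that gave no change past the threshold (-0.25, SE 0.21, edgeR adjusted p = 0.445).

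Mmp10 (stromelysin 2) was barely present in NFs alone and, with Mmp9, had the largest rise of the members. Its counts in NFs alone were 50 (CD26-) and 82 (CD26+), or 3.10 and 5.76 CPM. Co-cultured NFs held 1094 and 1791 CPM in gel 4 and 1273 and 2689.8 CPM in gel 5, which was 311-fold to 467-fold above the same subset alone (log2 fold change 8.64, SE 0.31, edgeR adjusted p = 1.13e-07). Their level was 2342% to 13435% of that of the tumor library of the gel, at the same epithelial marker sums. In every gel CD26+ NFs were the higher, by 1.64-fold to 2.11-fold (0.75, SE 0.20, edgeR adjusted p = 0.0481). That call was lost without gel 1 (0.76, edgeR adjusted p = 0.0783) and without gel 5 (0.64, edgeR adjusted p = 0.303). In tumor cells Mmp10 went the other way, from 137 to 46.7 CPM in 13-MCB-17 and from 29.4 to 20.02 CPM in 10-SJK-221 (-1.12, SE 0.21, edgeR adjusted p = 0.00645). In a fit that also held the NF libraries it passed with all gels (edgeR adjusted p = 0.0232) but not without gel 2 or gel 4, which left 1 library of 13-MCB-17 (-0.56, edgeR adjusted p = 0.657 and 0.662). Mmp3 and Mmp10 share 7.49% and 7.67% of their 54-base windows with other genes, each other among them, so reads could be split between them.

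Mmp13 (collagenase 3) was nearly level between subsets in NFs alone and not in co-culture. NFs alone held 601 CPM in CD26- and 636 CPM in CD26+ NFs. In co-culture CD26- NFs held 1355 and 1962 CPM and CD26+ NFs 5032 and 5391 CPM (gels 4 and 5), so that the co-cultured subsets did not overlap. Across both subsets Mmp13 rose by 2.23 on the log2 scale (SE 0.36, edgeR adjusted p = 0.000741), 2.26-fold and 3.27-fold in CD26- and 7.92-fold and 8.48-fold in CD26+ NFs. Over all 3 gels the subset difference was 0.98 (SE 0.31, edgeR adjusted p = 0.0826), and without gel 1 it was 1.48 (edgeR adjusted p = 0.00375).

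The interaction, which asks whether CD26+ NFs responded to tumor cells more than CD26- NFs, was 1.53 for Mmp13 (SE 0.38, unadjusted p = 0.00146 over all genes fitted by edgeR, adjusted p = 0.145). Among members, 0 of 10 passed, against 0.376% of all genes, and Mmp13 was the 1 member with an unadjusted edgeR p under 0.05. With the gel as replicate block Mmp13 passed (1.57, edgeR adjusted p = 1.22e-05), in a fit with 1 residual degree of freedom that called 395 genes. It also passed under DESeq2 (1.51, adjusted p = 0.00767). In a fit that also held the tumor libraries, added after the first results were seen, the estimate for Mmp13 was 1.52 (edgeR adjusted p = 0.952), and edgeR called 0 of all genes, with 0 members at an unadjusted p under 0.05. The same held without gel 4 or gel 5, which could be left out in that fit only. Mmp13 in CD26+ NFs was 238% and 315% of the level in the tumor library of the gel, at an epithelial marker sum of 4.35% and 6.39%.

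Levels of Mmp13 in tumor cells overlapped those of NFs. The lines had 1261 (13-MCB-17) and 524 CPM (10-SJK-221) alone and 2114 and 1714 CPM in co-culture, a rise of 1.20 (SE 0.22, edgeR adjusted p = 0.00613) that did not pass under DESeq2 (adjusted p = 0.0921) and, in a fit that also held the NF libraries (edgeR adjusted p = 0.0108 with all gels), without gel 3 or gel 5 (0.70 in either case, edgeR adjusted p = 0.266 and 0.272). NFs alone and tumor cells alone did not differ past the threshold (-0.42, SE 0.40, edgeR adjusted p = 0.405), but the estimate was 0.41 without gel 2 and -0.94 without gel 3, where it passed (edgeR adjusted p = 0.0253). In co-culture tumor cells lay between CD26- and CD26+ NFs in gel 4 and below both in gel 5 (NFs higher by 0.82, SE 0.36, edgeR adjusted p = 0.0852; with the gel as replicate block 0.81, edgeR adjusted p = 0.0145).

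Mmp14 (ENSMUSG00000000957, chromosome 14, 54431612 to 54445364, plus strand), the membrane-bound activator of Mmp2, was the 1 protease among the 7 that fell in co-cultured NFs. It measured 2061 and 2386 CPM in CD26- and CD26+ NFs alone, 860.5 and 1147 CPM in gel 4, and 1134 and 1480.0 CPM in gel 5. All 4 co-cultured libraries were below both libraries grown alone (-0.90, SE 0.18, edgeR adjusted p = 0.00295). The fibroblast marker sum, mostly collagens, was lower in these libraries too, while Dcn and Thy1 were higher within subsets, as given above. The part of fibroblast content in the fall of Mmp14 was not tested. The difference between subsets was within the spread (0.18, SE 0.18, edgeR adjusted p = 0.58). Tumor cells held less, 374 and 141 CPM alone and 529.7 and 174 CPM in co-culture, with the line 13-MCB-17 higher in either setting. Their rise of 0.38 (SE 0.11, edgeR adjusted p = 0.0419) did not pass with RLE scaling (edgeR adjusted p = 0.0548), with DESeq2 (adjusted p = 0.105) or in a fit that also held the NF libraries (edgeR adjusted p = 0.303).

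Mmp11 (ENSMUSG00000000901, chromosome 10, 75923222 to 75936496, minus strand), the stromelysin activated inside the cell, was low and even in NFs, with 105 and 104 CPM alone, 85.7 and 106 CPM in gel 4, and 75.8 and 119 CPM in gel 5 (CD26- and CD26+). Co-culture gave no change past the threshold (-0.09, SE 0.14, edgeR adjusted p = 0.614). In tumor cells it went from 23.0 to 46.2 CPM (13-MCB-17) and from 30.2 to 51.2 CPM (10-SJK-221), a rise of 0.86 (SE 0.12, edgeR adjusted p = 0.00184) that passed with the NF libraries in the fit (edgeR adjusted p = 0.00364) but not there without gel 2 or gel 4 (0.76, edgeR adjusted p = 0.169 and 0.172). Its exons overlap those of Chchd10 over 5.58% of their length.

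Among the inhibitors, Timp1 (ENSMUSG00000001131, chromosome X, 20870166 to 20874735, plus strand) rose in co-cultured NFs, as 4 of the 7 proteases did. It measured 626 CPM in CD26- and 507 CPM in CD26+ NFs alone, 1337 and 766 CPM in gel 4, and 1769.78 and 1283 CPM in gel 5. All co-cultured libraries were above both libraries alone, by 1.51-fold to 2.83-fold within subsets (log2 fold change 1.21, SE 0.25, edgeR adjusted p = 0.00293). In every gel and subset this fold was below those of Mmp3, Mmp9, Mmp10 and Mmp13, narrowly for Mmp13 in CD26- NFs (2.14 against 2.26 and 2.83 against 3.27), a difference between genes that was not tested. CD26- NFs held more in every gel (CD26+ lower by 1.24-fold to 1.75-fold). Over 3 gels this did not pass (-0.66, SE 0.22, edgeR adjusted p = 0.1), and with the gel as replicate block it did (-0.68, edgeR adjusted p = 0.0262).

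Tumor cells held 42.6 and 30.7 CPM of Timp1 alone and 139.7 and 103 CPM in co-culture, a rise of 1.70 (SE 0.10, edgeR adjusted p = 3.86e-05) that was 3.28-fold and 3.34-fold in the respective lines. The co-cultured levels were 13.3% and 6.72% of those of the NFs of the gel, beside 0.578% and 0.301% for the fibroblast marker sum, and the part of sorted-in NFs was not tested.

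Timp2 (ENSMUSG00000017466, chromosome 11, 118301069 to 118355740, minus strand), which also takes part in Mmp2 activation, fell in co-cultured NFs as Mmp14 did. It went from 2109 CPM to 1233 and 1518 CPM in CD26- NFs and from 1702 CPM to 933 and 1062 CPM in CD26+ NFs (-0.64, SE 0.16, edgeR adjusted p = 0.00947). The fibroblast marker sum was again lower and Dcn and Thy1 higher, and the part of fibroblast content was not tested. Without gel 4 the fall did not pass (-0.50, edgeR adjusted p = 0.0805). CD26+ NFs were the lower in every gel, by 1.24-fold to 1.43-fold (-0.57, SE 0.16, edgeR adjusted p = 0.0587; with the gel as replicate block -0.56, edgeR adjusted p = 0.0386). In tumor cells Timp2 was the steadiest inhibitor, at 686 and 521 CPM alone and 579 and 499 CPM in co-culture (-0.18, SE 0.12, edgeR adjusted p = 0.331).

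Timp3 (ENSMUSG00000020044, chromosome 10, 86300372 to 86349506, plus strand), the matrix-bound inhibitor, separated the subsets. CD26- NFs held 787, 660.4 and 734 CPM and CD26+ NFs 316, 336 and 295 CPM in gels 1, 4 and 5. The subsets did not overlap, CD26+ NFs being lower by 1.97-fold to 2.49-fold within gels (-1.36, SE 0.13, edgeR adjusted p = 0.00125). Without gel 5 the estimate was -1.28 (edgeR adjusted p = 0.0707), in a fit that called 17 genes in all. Co-culture moved Timp3 by less than the spread in NFs (-0.04, SE 0.14, edgeR adjusted p = 0.828). In tumor cells it fell from 107 to 15.5 CPM in 13-MCB-17 and from 69.8 to 18.02 CPM in 10-SJK-221, or 6.90-fold and 3.87-fold (-2.40, SE 0.19, edgeR adjusted p = 0.00014). Exons of Timp3 overlap those of Syn3 over 21.3% of their length, so counts of this gene are uncertain where strand was not used.

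Between cell types, all 3 TIMPs were higher in NFs with and without co-culture, whereas Mmp9 and Mmp10 were lower in NFs alone and higher in co-cultured NFs. For NFs alone against tumor cells alone, 8 of 10 members passed, against 55.5% of all genes (28.4% higher and 27.1% lower in NFs): Mmp2, Mmp11, Mmp14 and all 3 TIMPs were higher in NFs, and Mmp9 and Mmp10 were lower. Timp1 differed most among the inhibitors (4.07, SE 0.37, edgeR adjusted p = 3.45e-05), followed by Timp3 (2.62, SE 0.24) and Timp2 (1.78, SE 0.23). For co-cultured NFs against tumor cells of the same gels, 9 of 10 members passed, against 51.8% of all genes (27.7% higher and 24.2% lower in NFs), and all 9 were higher in NFs. Mmp2 (6.90, SE 0.50), Mmp10 (5.81, SE 0.78) and Timp3 (5.01, SE 0.26) led, and Mmp11 (1.17, SE 0.15) and Timp2 (1.32, SE 0.21) had the smallest differences past the threshold. Without gel 4 the calls of Mmp11 and Mmp14 were lost, leaving 7 members, and without gel 5 those of Mmp10 and Timp2 were lost too, leaving 5.

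Whether the response to co-culture differed between NFs and tumor cells was tested directly, in a comparison added after the first results were seen. Of 10 members 6 passed, against 20.2% of all genes (12% higher and 8.15% lower). The signed NF response lay above that of tumor cells for Mmp10 (10.00, SE 1.09, edgeR adjusted p = 0.000748), Mmp9 (6.97, SE 0.61, edgeR adjusted p = 0.0003), Mmp3 (3.67, SE 0.45, edgeR adjusted p = 0.00121) and Timp3 (2.39, SE 0.31, edgeR adjusted p = 0.00171). For Timp3 this reflects its fall in tumor cells, since NFs showed no change past the threshold. All 8 epithelial markers were higher in this comparison too (median 10.09), beside the shares of tumor level given above, and the part of sorted-in tumor cells was not tested further. The NF response was below that of tumor cells for Mmp2 (-3.29, SE 0.55, edgeR adjusted p = 0.00495) and Mmp11 (-0.94, SE 0.22, edgeR adjusted p = 0.0183). Fibroblast markers moved with Mmp2, as 6 of 8 were lower in this comparison (median -4.99) and 5 of 6 tested rose in co-cultured tumor libraries (median 4.11), and the part of sorted-in NFs was not tested. For Timp1, which rose in both, the difference did not pass (-0.48, SE 0.43, edgeR adjusted p = 0.483). Without gel 4 or without gel 5, which left 1 residual degree of freedom, edgeR called 0 of all genes in this comparison. The same 6 members kept their direction and an unadjusted p under 0.05 in either case.

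Other MMP and TIMP genes were surveyed from a list of 17. In co-cultured NFs 5 of 13 tested rose and 5 fell, beside 25.9% and 22.9% of all genes. Mmp12, the macrophage elastase, changed most, from 0.373 CPM in CD26- and 0.281 CPM in CD26+ NFs alone to 41.3 and 151 CPM in gel 4 and 33.7 and 158 CPM in gel 5 (8.06, SE 0.36, edgeR adjusted p = 4.02e-07). Between subsets 2 of the 13 were higher and 1 lower in CD26+ NFs, beside 3.93% and 3.6% of all genes: Mmp12 (1.78, SE 0.22, edgeR adjusted p = 0.00357), Mmp1a (2.67, SE 0.49, edgeR adjusted p = 0.0153) and Mmp17 (-0.73, SE 0.14, edgeR adjusted p = 0.0203). Mmp12 lay at 1.02 to 2.93 CPM in tumor libraries. Of 8 macrophage and leukocyte markers 6 could be tested, and 4 were higher and 1 lower in co-cultured NFs. Cd68 went from 3.48 and 6.53 CPM in NFs alone to between 19.6 and 53.5 CPM, and Csf1r from 1.86 and 2.81 CPM to between 7.42 and 13.5 CPM, whereas Adgre1 was at 0 in all 6 NF libraries. Cx3cr1, like Mmp12, was higher in co-cultured CD26+ NFs (2.44 and 1.63 CPM) than in CD26- NFs (0.182 and 0.115 CPM). The marker that fell was Lyz2, from 6.02 and 4.07 CPM to between 0.173 and 0.964 CPM, and Ptprc, whose product was gated out before culture, had no more than 1 count in any NF library. Mmp25, Mmp17, Mmp1a and Mmp1b rose as well, Mmp1a and Mmp1b to no more than 4.10 and 3.68 CPM in any NF library and with 7.56% and 11% of their windows shared. Mmp23, Mmp16, Mmp15, Mmp28 and Mmp27 fell, Mmp23 from 111 and 108 CPM to between 25.1 and 37.6 CPM (-1.70, SE 0.15, edgeR adjusted p = 1.78e-05). The fall of Mmp15 lay in CD26+ NFs, with 13.8 CPM alone against 1.80 and 1.91 CPM in co-culture. CD26- NFs held 1.92 CPM of Mmp15 alone and 1.15 and 2.07 CPM in co-culture. Mmp19 measured 200.2 to 340 CPM in NFs and rose in co-cultured tumor cells from 21.0 and 16.5 CPM to 97.3 and 84.2 CPM (2.25, SE 0.11, edgeR adjusted p = 1.64e-05), with 28.3% of its exons overlapped by other genes. In the same tumor comparison 2 of these genes fell, Mmp1b from 22.3 and 28.8 CPM to 1.36 and 3.88 CPM (-3.38, SE 0.27, edgeR adjusted p = 0.000147) and Mmp24 (-0.85, SE 0.19, edgeR adjusted p = 0.0143), so that 1 of 9 tested rose and 2 fell, beside 10.8% and 11.5% of all genes. Mmp24 was detected chiefly in tumor cells (6.39 to 15.9 CPM) and Mmp8 stayed below 2 CPM.

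Of 18 genes that activate, anchor or inhibit MMPs, 13 rose and 1 fell in co-cultured NFs (median 1.14), beside 25.9% and 22.9% of all genes. Those with the largest changes were Spock1 (5.48, SE 0.80), an extracellular proteoglycan at 0 and 0.281 CPM in NFs alone, Itgb3 (5.04, SE 0.20), an integrin chain, and Lcn2 (4.66, SE 0.23), lipocalin 2, which binds Mmp9. Between subsets 1 was higher and 4 were lower in CD26+ NFs, beside 3.93% and 3.6% of all genes, among them Lcn2 (2.99, SE 0.18) and Thbs1 (-0.84, SE 0.17), a matrix glycoprotein. Lcn2 measured 436 to 661 CPM in tumor libraries and 16.5 to 173 CPM in co-cultured NFs, and the part of sorted-in tumor cells in its level was not tested. Of 17 transcription factors of the AP-1, ETS and related families, 8 rose and 1 fell in co-cultured NFs (median 0.33), a number called that is near the 48.8% of all genes. Etv4 (2.15, SE 0.21), Fosl2 (-1.68, SE 0.12) and Etv1 (0.82, SE 0.25) changed most, and between subsets Runx2 alone passed, lower in CD26+ NFs (-0.58, SE 0.13).

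The genes whose profile over the 10 libraries was nearest to that of 3 members were found among 9331 genes by the root mean square difference of centered log2(CPM + 1) values. Nearest to Mmp9 were Mmp10 (0.91), Ret (1.05), a receptor tyrosine kinase, and Mmp12 (1.20). Ret went from 3.66 and 4.35 CPM without tumor cells to between 167 and 364 CPM with them, with CD26- above CD26+ NFs in both gels, unlike Mmp9. Nearest to Mmp13 were Arrdc2 (0.57), Usp35 (0.60) and Rabep2 (0.60). Nearest to Timp3 were Arhgap32 (0.50), Arhgdib (0.63) and Bdnf (0.68). All these values share the same libraries and are descriptions only.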

How the data were processed

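Raw read counts per gene of all 10 libraries were deposited by the authors in 1 table, not normalized. Submitters' processing notes name GRCm38 and HISAT2 2.2.1. The counting program and its use of strand are not given in the sources used here. Of the gene IDs 99.53% were found in GENCODE M21, whose exons gave lengths for TPM. A line without gene ID held 0 counts. Tests used edgeR 4.0.16 in R 4.3.3 (quasi-likelihood, TMM, filterByExpr, Benjamini-Hochberg, 0.05): NF comparisons on 6 NF libraries, tumor cells on 4 libraries with line as a term, and comparisons between cell types on all 10. The code was tested on simulated data. Alternatives were RLE scaling, no filter, DESeq2 1.42.0, a log2 fold change above 2 as in the study, blocks and left-out gels. Gel numbers mark physically shared gels. Deviations of gel 5 from gel 4 correlated between cell types by 0.28, 0.18 and 0.10. Counts of library pairs within a group differed beyond sampling noise (chi-square per degree of freedom 18.5 to 61.1). Named genes were the 10 members, other MMP and TIMP genes reaching 1 CPM, and from lists of regulators and transcription factors the 3 called with the largest change, of which 1 is not reported here. Members and lists were chosen with earlier results of these data known. Promoters came from RefSeq (GRCm38.p6), where 8 of 10 members matched.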

Additional observations from a re-analysis of the deposited data

Results flagged for a closer look

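The response to co-culture differed between NFs and tumor cells for 6 members by edgeR's test of the difference itself (adjusted p 0.0003 to 0.0183): log2 differences were -3.29 for Mmp2, 3.67 for Mmp3, 6.97 for Mmp9, 10.00 for Mmp10, -0.94 for Mmp11 and 2.39 for Timp3. For Mmp2 the fibroblast markers moved the same way, 6 of 8 being lower (median -4.99), and for Mmp3, Mmp9 and Mmp10 all 8 epithelial markers did (median 10.09). Co-cultured NFs held 862% to 1834% (Mmp3), 807% to 2406% (Mmp9) and 2342% to 13435% (Mmp10) of the tumor library of their gel. Their epithelial marker sum was 2.97% to 6.39% of it. The part of sorted-in cells was not tested further. These tests were added after seeing the data. Without gel 4 or gel 5, with 1 residual degree of freedom, edgeR called 0 of all genes, and all 6 members kept their direction and an unadjusted p under 0.05 (for Mmp10 10.98 and 9.23, for Mmp2 -2.50 and -3.77).

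Opposite directions in log2 CPM were found for Mmp3 and Mmp11. Mmp3 changed by -0.71 in the tumor line 13-MCB-17 and by 0.25 in 10-SJK-221 upon co-culture, with 1 library per line and setting, a difference between lines that was not tested. CD26+ minus CD26- NFs gave -0.43 for Mmp3 in the gel without tumor cells and a mean of 0.33 in the co-culture gels. For Mmp11 the same difference was -0.0054 without tumor cells and 0.48 with them. Likewise, co-culture moved Mmp11 by a mean of -0.38 in CD26- and of 0.10 in CD26+ NFs, each of 2 libraries against 1. For subset and culture the difference was tested as their interaction and did not pass for Mmp3 (0.75, SE 0.38, edgeR adjusted p = 0.711) or Mmp11 (0.46, SE 0.29, edgeR adjusted p = 0.812).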

How the results depend on the processing

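Of 530 member estimates under alternatives, 440 kept direction and side of the threshold, 61 lost and 16 gained a call and 13 changed sign. A further absolute log2 fold change above 2 left 0 members for CD26+ against CD26- NFs, 4 for co-cultured NFs and 2 for co-cultured tumor cells. DESeq2 called 4 members between subsets, beside 1594 of 27367 genes, and 1 (Mmp13) for the interaction, beside 98 of 27367. With the gel as replicate block 4 members were called between subsets (Mmp10, Timp1, Timp2, Timp3), beside 1331 of 15013 genes. For the interaction it called 1 member (Mmp13), beside 395 of 16231 genes. For co-cultured NFs against tumor cells it called 10 members, beside 8985 of 15098 genes. The block changed no other call of a member. Comparisons of NFs alone with other gels share no numbers and had no block. With no replicate block for tumor line edgeR called 0 of all genes in tumor cells (5 members at an unadjusted p under 0.05, DESeq2 with the line 6 members). For the interaction and tumor cells, gels could be left out only in a fit of all 10 libraries. Leaving out 1 gel gave 0 to 2 members between subsets (0 without gel 5), 6 to 7 for co-cultured NFs, 0 for the interaction, 5 to 6 for tumor cells (7 with all 10 libraries), 8 to 9 for NFs against tumor cells alone, 5 to 7 in co-culture and 0 to 7 for the difference in response (0 without gel 4 or 5, where edgeR called 0 of all genes).

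Signs changed for small estimates. With 1 gel left out they ranged from -0.30 to 0.18 for Mmp3 between subsets, from -0.75 to 0.25 for Mmp3 in tumor cells, from -0.94 to 0.41 for Mmp13 between NFs and tumor cells alone, from -1.07 to 0.069 for Timp1 in the response difference, and in the interaction from -0.19 to 0.14 for Mmp10, from -0.27 to 0.13 for Mmp9 and from -0.048 to 0.33 for Timp3. The interaction of Mmp10 (0.0049) was -0.017 with RLE, -0.028 without a filter, -0.019 with DESeq2 and -0.021 with the replicate block and -0.011 with all 10 libraries. The cause was not tested. The protease to inhibitor difference of tumor cells became -0.36 without Mmp13 and 0.79 on counts not divided by length. Genes called of all tested moved by more than 1.5 times with the fold limit (192 between subsets, 2047 in co-cultured NFs, 418 in tumor cells, 4899 between cells alone, 3999 between co-cultured cells, 1629 for the response difference), and for subsets (1130) without gel 5 (17), the interaction (61) without a filter (18), with DESeq2 (98), with the replicate block (395) and in a fit of all 10 libraries (0, and 0 there without gel 4 or 5), tumor cells (2942) with DESeq2 (1550), in a fit of all 10 libraries (1817) and in that fit with 1 tumor library left out (406 to 1014), and co-cultured NFs against tumor cells (8839) with 1 gel left out (2614 and 3018).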
